A study of Mus musculus with 12 samples.

Results

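The genes described here are the 7 that carry MHC class II antigen presentation in these files: the chain genes H2-Aa, H2-Ab1 and H2-Eb1, the peptide exchange genes H2-DMa and H2-DMb1, the invariant chain gene Cd74, and Ciita, which encodes the regulator of the others. They were chosen by name, by splitting each gene name field at its commas, and each name stood in 1 row of the 24553 entries listed for every library. The Cd74 row also carries the name of the microRNA gene Mir5107. RNA was sequenced from 12 mouse livers and liver tumors in 4 groups of 3. The first group was tumors labelled Setd2 knockout (KO) and the second was wild-type (WT) tumors, both from male mice given 1 intraperitoneal dose of 25 mg/kg of the carcinogen diethylnitrosamine (DEN) at 2 weeks of age, with tumors taken at 8 months. The third was KO normal liver and the fourth WT normal liver, from 8-month-old males that had no DEN. Setd2 encodes the methyltransferase that places trimethylation on lysine 36 of histone H3. The titles carry the letters cKO, and which cells lost the gene was not given in any source used here. Tumors and normal livers differ in DEN exposure as well as in tissue, so these cannot be told apart in any tumor to liver comparison.

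MHC class II molecules display peptides from engulfed and endosomal proteins to CD4 T cells. An alpha and a beta chain pair in the endoplasmic reticulum with the invariant chain, which blocks the groove and carries the pair to late endosomes, where cathepsins degrade it and H2-DM trades the remaining fragment for a peptide. Dendritic cells, B cells and activated macrophages carry these genes constitutively, and interferon gamma can switch them on in other cells. CIITA does not bind DNA itself and works through the factors RFX, CREB and NF-Y, which sit on the X and Y boxes of the class II promoters. In the liver the usual carriers are Kupffer cells, dendritic cells, B cells and sinusoidal endothelium.

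H2-Aa lies on chromosome 17 at 34282744 to 34287823 on the reverse strand, in the mouse build mm10 with the GENCODE vM21 annotation. On the forward strand of the same chromosome are H2-DMa at 34119541 to 34139101, H2-DMb1 at 34153072 to 34160230, H2-Ab1 at 34257689 to 34269419 and H2-Eb1 at 34305867 to 34316674. Ciita lies on chromosome 16 at 10480059 to 10528418. All 7 members are annotated as protein coding. The promoters of H2-Aa, H2-Eb1 and H2-DMb1 are printed here because, of the members in the promoter table, these 3 held both motifs that are named for class II promoters. Each window runs from 250 bases before to 50 bases after the RefSeq start in GRCm38.p6, and is read 5′ to 3′ on the strand of the gene. The windows are chr17:34287774-34288073 on the reverse strand for H2-Aa, chr17:34305617-34305916 on the forward strand for H2-Eb1 and chr17:34152941-34153240 on the forward strand for H2-DMb1. Capitals mark the start of the X box, searched as CTNGNAAC, and the core of the Y box, searched as GATTGG, each on both strands.
H2-Aa: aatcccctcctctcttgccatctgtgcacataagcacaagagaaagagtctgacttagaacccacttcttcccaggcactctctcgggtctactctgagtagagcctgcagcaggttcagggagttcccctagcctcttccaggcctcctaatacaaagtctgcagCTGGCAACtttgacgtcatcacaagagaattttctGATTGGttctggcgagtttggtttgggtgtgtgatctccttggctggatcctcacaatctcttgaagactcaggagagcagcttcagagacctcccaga
H2-Eb1: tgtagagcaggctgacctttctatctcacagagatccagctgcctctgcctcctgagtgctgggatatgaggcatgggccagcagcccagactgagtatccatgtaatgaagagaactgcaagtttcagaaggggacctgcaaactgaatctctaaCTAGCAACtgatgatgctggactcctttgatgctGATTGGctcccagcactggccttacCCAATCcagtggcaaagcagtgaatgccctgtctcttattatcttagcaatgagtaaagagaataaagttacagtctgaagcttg
H2-DMb1: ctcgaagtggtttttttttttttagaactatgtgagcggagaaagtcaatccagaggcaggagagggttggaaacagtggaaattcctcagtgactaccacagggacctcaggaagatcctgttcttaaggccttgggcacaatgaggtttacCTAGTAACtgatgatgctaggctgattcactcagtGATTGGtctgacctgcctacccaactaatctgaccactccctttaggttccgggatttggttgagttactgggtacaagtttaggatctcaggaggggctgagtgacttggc
Counted from the start site, the X box letters began at -84 in H2-Aa, -94 in H2-Eb1 and -97 in H2-DMb1. The Y box core began at -49, -60 and -62 in the same genes, with 27, 26 and 27 bases between the pair of motifs. H2-Eb1 holds a further Y box core on the opposite strand. Of 32851 promoter windows of the same length, 13.2% held the X letters and 16.1% the Y letters. Both in this order on the forward strand with 15 to 30 bases between them were found in 16 windows (0.0487%), of which 4 belong to class II genes, H2-Ob being the other one. The letters were chosen with these windows in view, so the share is a description and not a test. Neither of the windows listed for H2-DMa held the X letters, and 1 of them held the Y core. H2-Ab1, Cd74 and Ciita had no entry in the promoter table.

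Values are FPKM, sequenced fragments scaled by transcript length and by the mapped fragments of the library, as deposited. Because of the scaling by length, levels can be set against each other between genes. The summed FPKM of a library ran between 423498 and 719538, and 10233 to 11620 entries reached 1 FPKM. The number of reads behind a value is unknown. KO tumors were the least alike: libraries of that group correlated at r = 0.924 to 0.942 across genes, against 0.949 to 0.985 in WT tumors, 0.977 to 0.979 in KO livers and 0.982 to 0.986 in WT livers. Setd2 itself stood at 3.14, 2.18 and 1.90 FPKM in KO tumors and 4.40, 3.61 and 4.07 in WT tumors. It stood at 1.66, 1.93 and 1.32 FPKM in KO livers and 4.84, 3.84 and 4.70 in WT livers. Every KO library was below every WT library of its tissue. The labels do not say outright that each library is another animal, so the p-values speak for the spread among these libraries, which may be partly technical.

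The class II genes kept 1 order of level in nearly every library. Cd74 was above H2-Aa in 12 of 12 libraries, H2-Aa above H2-Ab1 in 12, H2-Ab1 above H2-Eb1 in 10, H2-Eb1 above H2-DMb1 in 12, H2-DMb1 above H2-DMa in 11 and H2-DMa above Ciita in 12. In KO tumors 1 and 2 H2-Eb1 was above H2-Ab1, and in WT liver 2 H2-DMa was above H2-DMb1. No member was listed at 0 in any library. For all 7 the mean FPKM was highest in KO tumors, then WT tumors, then KO livers, and lowest in WT livers. Every tumor was above every normal liver for Cd74, H2-Aa, H2-Ab1, H2-Eb1 and Ciita. For H2-DMa and H2-DMb1 the lowest WT tumor lay among the normal livers. In bulk RNA such as this, fewer cells of a type and less RNA per cell cannot be told apart.

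**Figure D1:**
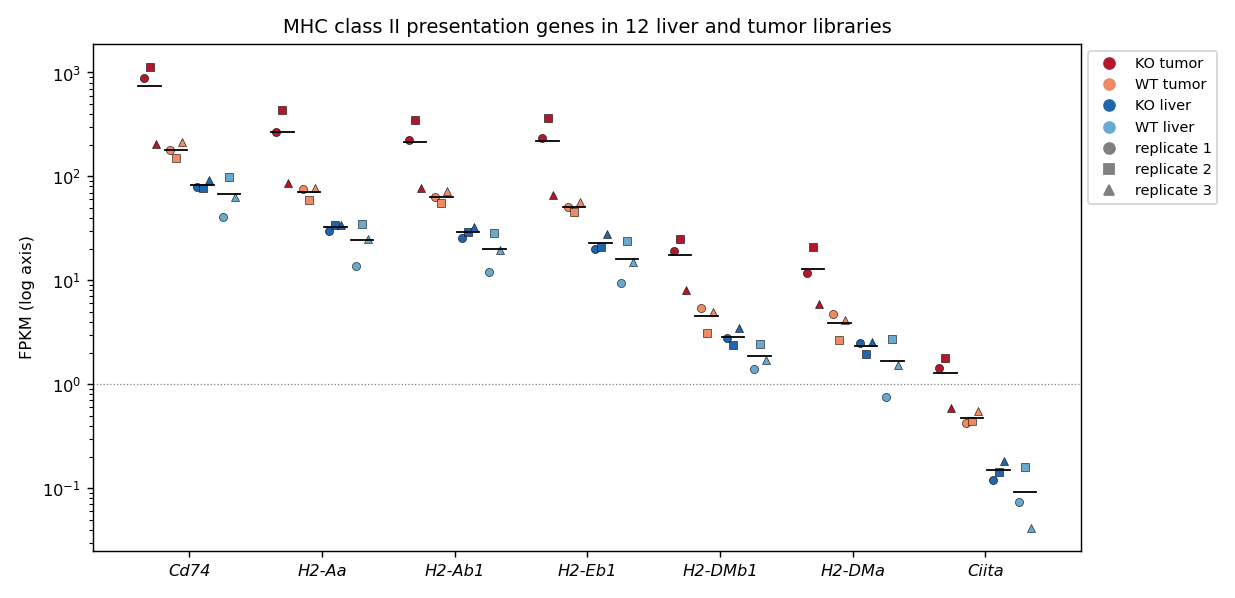
FPKM of the 7 class II genes (log axis) in each of 12 libraries, with a point for each library and a bar at the mean of 3. KO tumors 1 and 2 stand above the other libraries for every gene, KO tumor 3 lies near the WT tumors, and normal livers are lowest; the dotted line is at 1 FPKM.

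Cd74, whose product is the invariant chain, was the most abundant member and is the only one on chromosome 18. It stood at 879, 1128 and 205 FPKM in KO tumors and 179, 149.9 and 212 in WT tumors. In KO livers it stood at 78.7, 76.8 and 91.3 FPKM and in WT livers at 40.7, 98.9 and 63.5. KO tumor 3 was below WT tumor 3, so the tumor groups overlapped for this gene, as did the liver groups.

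H2-Aa, the alpha chain of the I-A molecule, stood at 270.0, 437 and 86.3 FPKM in KO tumors and 75.3, 59.6 and 77.2 in WT tumors. The KO livers had 29.8, 34.2 and 33.9 FPKM and the WT livers 13.7, 35.2 and 24.8. All KO tumors were above all WT tumors, and the liver groups overlapped. H2-Ab1, its beta chain partner, had 222, 348 and 77.3 FPKM in KO tumors and 63.2, 55.8 and 71.7 in WT tumors, against 25.8, 29.3 and 32.9 in KO livers and 11.9, 28.6 and 19.8 in WT livers. The lowest KO tumor exceeded the highest WT tumor by a small margin. H2-Eb1, the beta chain of the I-E molecule, had 234, 363 and 65.6 FPKM in KO tumors and 51.2, 45.7 and 56.3 in WT tumors, against 20.1, 21.0 and 28.1 in KO livers and 9.52, 24.0 and 15.1 in WT livers. The partner of H2-Eb1, the I-E alpha chain, is encoded by H2-Ea, which is broken in some mouse strains. Its row, named H2-Ea-ps in the files and looked up after the values were seen, was listed at 0 in all 12 libraries.

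H2-DMb1 and H2-DMa encode the chains of the H2-DM exchange factor and were far lower than the chain genes. H2-DMb1 had 19.1, 25.1 and 8.04 FPKM in KO tumors and 5.38, 3.13 and 4.99 in WT tumors, against 2.80, 2.39 and 3.45 in KO livers and 1.40, 2.46 and 1.70 in WT livers. H2-DMa had 11.8, 20.8 and 5.88 FPKM in KO tumors and 4.76, 2.68 and 4.14 in WT tumors, against 2.48, 1.96 and 2.57 in KO livers and 0.752, 2.74 and 1.52 in WT livers. Both separated the tumor groups by genotype. H2-DMb1 has a near copy, H2-DMb2, and the sources used here do not say how reads shared between copies were counted, so its level is uncertain to that extent. Ciita was near the bottom of the measured range, with 1.45, 1.77 and 0.597 FPKM in KO tumors and 0.422, 0.445 and 0.550 in WT tumors, against 0.121, 0.144 and 0.182 in KO livers and 0.0741, 0.159 and 0.0416 in WT livers. It separated KO tumors from WT tumors, and each tumor group from its normal liver. Only 2 libraries, KO tumors 1 and 2, reached 1 FPKM, so Ciita was left out of the main test of every comparison, which kept 11671 entries with at least 1 FPKM in at least 3 libraries.

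In KO tumors and WT livers most members had the same order of libraries. In KO tumors replicate 2 was highest, replicate 1 next and replicate 3 lowest for 7 of 7 members, and the highest library was 2.97 to 5.54 times the lowest. In WT livers replicate 2 was highest for 7 of 7 and replicate 1 lowest for 6, with a span of 1.75 to 3.83 times. The commonest order was shared by 6 of 7 members in WT livers, 4 in WT tumors and 3 in KO livers. WT tumors spanned 1.23 to 1.77 times and KO livers 1.15 to 1.5 times. Members measured in the same libraries are not independent of each other as evidence.

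The comparison of KO tumors with WT tumors asks what loss of Setd2 goes with in DEN tumors. Mean levels were higher in KO tumors for all 7 genes: the ratio of mean FPKM was 4.33 for H2-Eb1, 4.09 for Cd74, 3.87 for H2-DMb1, 3.74 for H2-Aa, 3.4 for H2-Ab1, 3.32 for H2-DMa and 2.7 for Ciita. Cd74 averaged 737 ± 478 FPKM in KO tumors and 180.4 ± 31.0 in WT tumors (SD, n = 3 each). H2-Aa averaged 265 ± 176 FPKM in KO tumors and 70.7 ± 9.65 in WT tumors. KO tumors were entirely above WT tumors for 5 of the 6 tested genes and for Ciita, where 13.8% of all tested entries were entirely above. The lowest KO tumor, replicate 3, was below WT tumor 3 for Cd74.

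None of the 6 tested genes passed in KO tumors against WT tumors at a Benjamini-Hochberg adjusted p of 0.05 in limma, where 9 of 11671 entries (0.0771%) passed. On the log2(FPKM + 1) scale, used for all fold changes here, the largest difference was 1.78 ± 0.59 for H2-Eb1 (SE; limma adjusted p = 0.193) and the smallest 1.38 ± 0.42 for H2-DMa (limma adjusted p = 0.166). H2-DMb1 had the lowest adjusted p, 0.122 in limma, at 1.64 ± 0.40. Cd74 gave 1.71 ± 0.62, H2-Aa 1.61 ± 0.56 and H2-Ab1 1.51 ± 0.52, with limma adjusted p-values between 0.206 and 0.227. All 6 had an unadjusted p under 0.05, as did 17.6% of all tested entries, and their median was 1.63 against 0.02 over all tested entries. Without KO tumor 3, 5 of the 6 were called higher in KO tumors, where 266 entries (2.28%) were called; H2-Eb1 then stood at 2.50, Cd74 at 2.47, H2-Aa at 2.27, H2-Ab1 at 2.12 and H2-DMb1 at 2.08, and H2-DMa at 1.80 was not called. Without KO tumor 2 none passed, where 3 of 11671 entries did. The differences were then 0.97 for H2-DMa to 1.32 for H2-DMb1, with limma adjusted p-values of 0.242 to 0.448. When the spread was estimated over all 12 libraries, H2-DMa and H2-DMb1 passed, where 1017 entries (8.71%) did.

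**Figure D2:**
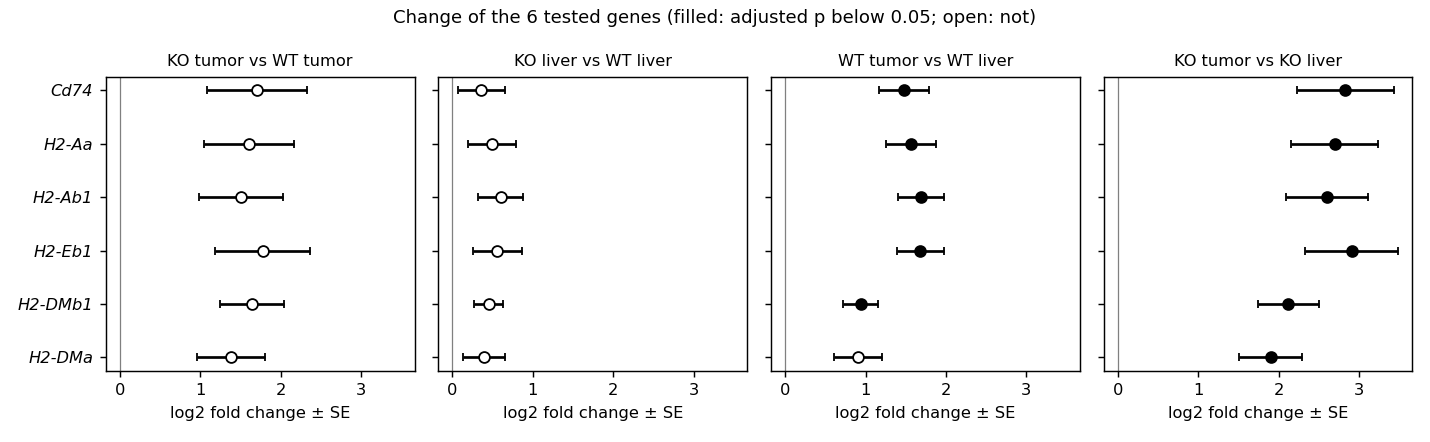
Difference in log2(FPKM + 1) of the 6 tested class II genes in 4 comparisons, as points with standard errors; filled points have an adjusted p below 0.05. The KO tumor points against WT tumors lie between 1.38 and 1.78 but have wide errors and are open, while all 6 KO tumor points against KO liver are filled.

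In normal liver the means were higher in KO for all 7 genes, but no gene separated the genotypes. The ratio of mean FPKM in KO livers over WT livers was 1.63 for Ciita, 1.56 for H2-DMb1, 1.46 for H2-Ab1, 1.42 for H2-Eb1, 1.4 for H2-DMa, 1.33 for H2-Aa and 1.21 for Cd74, and 0 of 7 genes had all KO livers above all WT livers, where 21.9% of tested entries did. Cd74 averaged 82.3 ± 7.92 FPKM in KO livers and 67.7 ± 29.3 in WT livers (SD, n = 3 each). Every KO liver lay between the lowest and the highest WT liver for Cd74 and H2-Aa. None of the 6 tested genes passed, where 18.1% of all tested entries did. The log2 differences ran from 0.36 ± 0.29 for Cd74 (limma adjusted p = 0.396) to 0.60 ± 0.28 for H2-Ab1 (limma adjusted p = 0.171), with a median of 0.47 against 0.03 over all tested entries. H2-DMb1, at 0.45 ± 0.18, was the only one with an unadjusted p under 0.05 (limma adjusted p = 0.108), where 37.6% of tested entries had one. Without WT liver 1, the lowest WT library for 6 of 7 members, the differences were smaller, at 0.05 for Cd74, 0.12 for H2-DMa, 0.13 for H2-Aa, 0.25 for H2-Eb1, 0.28 for H2-Ab1 and 0.34 for H2-DMb1, and none passed.

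Class II genes rose in tumors of WT mice relative to WT liver. H2-Ab1 averaged 63.6 ± 7.91 FPKM in WT tumors and 20.1 ± 8.36 in WT livers (SD, n = 3 each), a ratio of 3.16, and H2-Eb1 averaged 51.1 ± 5.32 in WT tumors and 16.2 ± 7.30 in WT livers, a ratio of 3.15. Of the 6 tested genes 5 rose, where 8.01% of all tested entries rose and 17.0% passed in either direction. The log2 differences were 1.69 ± 0.29 for H2-Ab1 (limma adjusted p = 0.0127), 1.68 ± 0.29 for H2-Eb1 (0.0136), 1.57 ± 0.31 for H2-Aa (0.0193), 1.48 ± 0.31 for Cd74 (0.0223) and 0.94 ± 0.22 for H2-DMb1 (0.0295). H2-DMa, at 0.91 ± 0.30, missed the threshold (limma adjusted p = 0.0787), and WT tumor 2 was below WT liver 2. The other 5 and Ciita had all WT tumors above all WT livers, where 18.5% of tested entries did. The median was 1.52 against -0.04 over all tested entries. Ciita, 5.15 times as high in WT tumors by its mean, passed when no filter on low values was used, at 0.43 ± 0.05 (limma adjusted p = 0.0248), where 6.68% of 18825 entries passed. In the same setting the 5 genes called above no longer passed, with limma adjusted p-values of 0.0512 for H2-Ab1 to 0.0837 for H2-DMb1, and with the spread taken over all 12 libraries only H2-Ab1 did, where 9.47% of tested entries passed. The 5 calls rest on small groups: without WT liver 3 none passed, where 3.89% of tested entries did, and without WT tumor 3, 3 of the 6 did, where 10.9% did.

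In the KO genotype the tumor to liver difference was larger in size. Cd74 averaged 737 ± 478 FPKM in KO tumors and 82.3 ± 7.92 in KO livers, a ratio of 8.96, and the ratio was 9.58 for H2-Eb1, 8.1 for H2-Aa, 7.36 for H2-Ab1, 6.04 for H2-DMb1 and 5.47 for H2-DMa. All KO tumors were above all KO livers for all 7 genes, where 21.3% of tested entries were entirely above. All 6 tested genes rose, where 9.09% of tested entries rose and 14.3% passed in either direction. The log2 differences were 2.91 ± 0.58 for H2-Eb1, 2.83 ± 0.60 for Cd74, 2.70 ± 0.54 for H2-Aa, 2.60 ± 0.51 for H2-Ab1, 2.12 ± 0.38 for H2-DMb1 and 1.90 ± 0.39 for H2-DMa, with limma adjusted p-values of 0.0179 to 0.0276. The median was 2.65 against -0.02 over all tested entries. None passed without KO tumor 1, where 4.54% of tested entries did. None passed without KO liver 1, 2 or 3, where 2.63%, 1.18% and 1.11% of tested entries did. With no filter on low values, too, none passed, where 2.88% of entries did. Ciita was 8.54 times as high in KO tumors, and its difference of 0.95 ± 0.21 without that filter had a limma adjusted p of 0.0714.

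The change with Setd2 loss in tumors minus that in normal liver was positive for all 6 tested genes and passed for none, where 2.08% of tested entries passed. It ran from 0.91 ± 0.64 for H2-Ab1 (limma adjusted p = 0.425) to 1.35 ± 0.75 for Cd74 (limma adjusted p = 0.308), and H2-DMb1, at 1.19 ± 0.47, had the lowest adjusted p, 0.174 in limma, and the only unadjusted p under 0.05 among the 6, where 22.3% of tested entries had one. The same term measures the KO tumor to KO liver change minus the WT tumor to WT liver change, so the larger tumor change in the KO genotype was not shown to differ from that in WT. Without KO tumor 3 the term passed for 5 of the 6, all but H2-DMa, where 1368 entries (11.7%) passed. It was then 2.11 for Cd74, 1.94 for H2-Eb1, 1.79 for H2-Aa, 1.63 for H2-DMb1 and 1.52 for H2-Ab1. Without KO tumor 2 none passed, and it was 0.45 for H2-Ab1 (limma adjusted p = 0.67), 0.59 for H2-DMa and 0.62 for H2-Aa. These comparisons share libraries, KO tumors standing in 2 pairwise comparisons and in the interaction, and so are not independent of each other.

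Ratios between members within a library do not depend on how a library was scaled. H2-Aa over H2-Ab1, the I-A alpha chain over its beta chain, averaged 1.20 ± 0.072 in KO tumors, 1.11 ± 0.068 in WT tumors, 1.12 ± 0.0767 in KO livers and 1.21 ± 0.0537 in WT livers (SD, n = 3 each). Cd74 over H2-Aa averaged 2.74 ± 0.464, 2.55 ± 0.184, 2.53 ± 0.247 and 2.78 ± 0.207 in the same groups. H2-Eb1 over H2-Ab1 was 1.05, 1.04 and 0.848 in KO tumors and 0.810, 0.818 and 0.786 in WT tumors, entirely higher in KO tumors. Its mean was 0.783 ± 0.0685 in KO livers and 0.799 ± 0.0386 in WT livers. H2-DMa over H2-DMb1 averaged 0.725 ± 0.105 in KO tumors and 0.858 ± 0.0287 in WT tumors, entirely lower in KO tumors. Exact two-sided permutation tests of 6 ratios in 4 comparisons gave a p of 0.10, the smallest that 3 against 3 allows, for both of these. The same p was found for H2-Aa over Ciita, which averaged 151 ± 23.9 in WT tumors and 335 ± 228 in WT livers, entirely lower in WT tumors. Over the 24 tests the lowest adjusted p was 0.533. H2-Aa over H2-DMa averaged 19.6 ± 4.32 in KO tumors, 18.9 ± 3.21 in WT tumors, 14.2 ± 2.87 in KO livers and 15.8 ± 2.76 in WT livers, with overlapping groups.

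The factors that act above class II passed in few comparisons. Of the 7 tested factors that CIITA binds on promoters (Rfx5, Rfxank, Rfxap, Creb1, Nfya, Nfyb, Nfyc), none passed in KO tumors against WT tumors, and their median difference was -0.25. Rfx5, the DNA-binding subunit of RFX, stood at 2.54, 1.96 and 1.92 FPKM in KO tumors and 2.01, 1.79 and 1.67 in WT tumors, against 1.25, 1.57 and 1.55 in KO livers and 1.38, 1.41 and 1.04 in WT livers. Its tumor groups overlapped, and its difference between them was 0.15 ± 0.16 (limma adjusted p = 0.658). Nfyb, a subunit of NF-Y, was the only one of the 7 to pass anywhere. It stood at 7.27, 6.34 and 8.43 FPKM in KO tumors, 11.1, 11.3 and 10.01 in WT tumors, 14.1, 13.4 and 12.8 in KO livers and 17.4, 28.3 and 24.1 in WT livers, the reverse of the class II order. Nfyb fell in KO livers against WT livers by 0.72 on the log2 scale (limma adjusted p = 0.0367), in WT tumors against WT livers by 1.02 (0.0141) and in KO tumors against KO livers by 0.80 (0.0243), while its difference of -0.51 ± 0.16 between the tumor groups did not pass (0.182).

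Interferon gamma is the classical inducer of Ciita, through its receptor and, further down, IRF1. Ifng was listed at 0, 0.567 and 0.110 FPKM in KO tumors, 0, 0 and 0.184 in WT tumors, 0.123, 0.0478 and 0.0658 in KO livers and 0, 0.0448 and 0 in WT livers, too low for the test. Of the 7 tested genes between interferon gamma and Ciita none passed in KO tumors against WT tumors, even at an unadjusted p under 0.05. Ifngr1, the ligand-binding receptor chain, stood at 55.4, 33.9 and 28.2 FPKM in KO tumors and 44.7, 37.9 and 31.0 in WT tumors, against 11.6, 10.7 and 12.7 in KO livers and 11.3, 15.7 and 10.99 in WT livers. Ifngr1 rose in tumors of both genotypes, by 1.61 ± 0.26 in KO tumors against KO livers (limma adjusted p = 0.0146) and 1.51 ± 0.19 in WT tumors against WT livers (0.00568). It differed by 0.00 ± 0.28 between KO and WT tumors. Ifngr2, the second receptor chain, fell in KO livers against WT livers by 0.70 (limma adjusted p = 0.0386) and had the only passing interaction of this group, 1.11 (0.0478). Irf1, a transcription factor that acts on the Ciita promoter, stood at 23.0, 26.2 and 15.2 FPKM in KO tumors and 18.2, 12.7 and 15.5 in WT tumors. It was highest in KO tumor 2 and overlapped between the tumor groups, with a limma adjusted p of 0.424.

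Endosomal enzymes that process the invariant chain and antigens were measured for 7 genes (Ctss, Ctsl, Ctsb, Ctsd, Ctsz, Lgmn, Ifi30). None passed in KO tumors against WT tumors, and the median difference was 0.82. An unadjusted p under 0.05 was found for 5 of them, as for 17.6% of all tested entries. Ctss, cathepsin S, which cuts the invariant chain in professional antigen presenting cells, stood at 131, 189.8 and 84.8 FPKM in KO tumors and 51.5, 24.5 and 27.6 in WT tumors, against 30.9, 30.05 and 21.0 in KO livers and 20.9, 35.9 and 25.3 in WT livers. All 3 KO tumors were above the other 9 libraries. Its difference was 1.94 ± 0.39 between KO and WT tumors (limma adjusted p = 0.0871) and 2.21 ± 0.32 between KO tumors and KO livers (0.0121). Ctss did not pass in WT tumors against WT livers, at 0.28 ± 0.31 (limma adjusted p = 0.543), where 5 class II genes did. This contrast between genes was not itself tested. Lgmn, an asparagine endopeptidase, also rose in KO tumors against KO livers, by 1.12 ± 0.26 (limma adjusted p = 0.0358). Ifi30, a lysosomal thiol reductase, stood at 29.9, 79.6 and 42.2 FPKM in KO tumors and 30.2, 17.3 and 26.5 in WT tumors, with a limma adjusted p of 0.274.

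Among 4 further class II genes only H2-Oa, a chain of the H2-DM inhibitor H2-O, could be tested. H2-Oa stood at 1.37, 1.32 and 1.63 FPKM in KO tumors, 0.565, 0.335 and 0.945 in WT tumors, 0.151, 0.209 and 0.350 in KO livers and 0.0410, 0.194 and 0.0965 in WT livers. It rose in KO tumors against KO livers by 0.98 ± 0.16 (limma adjusted p = 0.0146) and had an adjusted p of 0.179 in limma between KO and WT tumors, at 0.61 ± 0.19. KO tumor 3, lowest of its group for all 7 members, was highest for H2-Oa. H2-Ob, the other H2-O chain, stood at 0.927, 0.585 and 0.711 FPKM in KO tumors and 1.03, 0.352 and 0.587 in WT tumors, and H2-DMb2 at 1.35, 0.850 and 0.865 in KO tumors and 1.004, 0.305 and 0.976 in WT tumors. Both overlapped between the tumor groups. H2-Eb2, the remaining one, was listed at 0 in 2 libraries.

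Cd83, which protects surface class II from ubiquitination and marks activated dendritic and B cells, stood at 4.43, 3.09 and 3.07 FPKM in KO tumors and 1.26, 0.628 and 0.896 in WT tumors, against 1.20, 0.758 and 0.560 in KO livers and 1.17, 1.02 and 0.885 in WT livers. All KO tumors were above the other 9 libraries. Cd83 rose in KO tumors against KO livers by 1.30 ± 0.20 (limma adjusted p = 0.0135), its interaction of 1.38 passed (0.0335), and its difference between KO and WT tumors was 1.23 ± 0.20 (0.0683). Of 4 tested costimulation and checkpoint genes none passed between KO and WT tumors. Icosl, a T cell costimulator, rose in KO tumors against KO livers by 1.25 ± 0.33 (limma adjusted p = 0.0484) and in WT tumors against WT livers by 0.51 ± 0.13 (0.0423). Cd40, through which T cells activate presenting cells, rose in KO tumors against KO livers by 0.85 ± 0.18 (limma adjusted p = 0.0259). Cd86, a ligand of CD28, stood at 2.76, 2.29 and 2.28 FPKM in KO tumors and 1.87, 0.561 and 0.936 in WT tumors, with a limma adjusted p of 0.194. For 7 genes of MHC class I presentation, none passed between KO and WT tumors, with a median of 0.82. In KO tumors against KO livers 4 of them rose, where 9.09% of tested entries rose.

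**Figure D3:**
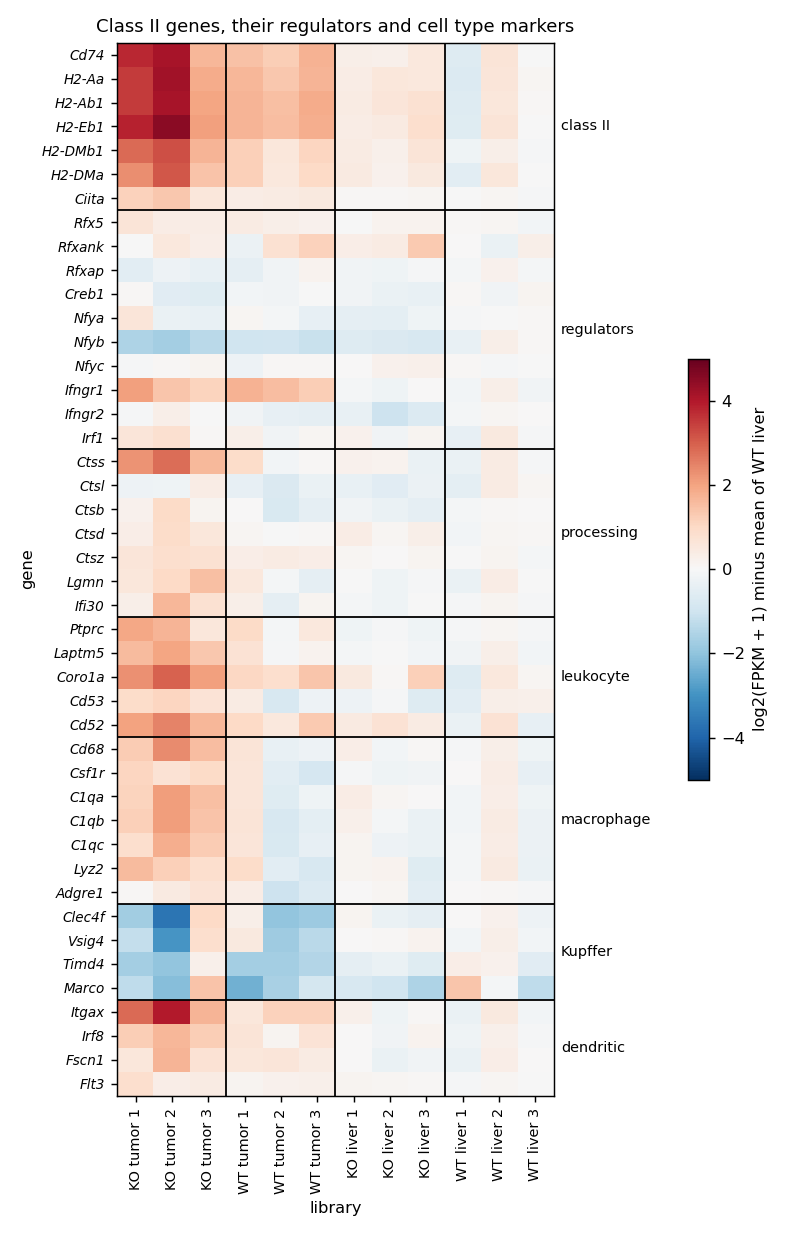
Log2(FPKM + 1) minus the mean of WT livers (colour) for class II genes, regulators, processing genes and cell type markers (rows) in 12 libraries (columns). Class II rows are darkest in KO tumors 1 and 2, and Nfyb is blue in all tumors. The Kupffer cell rows are blue in KO tumors 1 and 2 and in WT tumors 2 and 3, but not in KO tumor 3. Timd4 and Marco are also below the WT liver mean in WT tumor 1 and in the KO livers.

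Pan-leukocyte markers were highest in KO tumors. The summed FPKM of 5 pan-leukocyte markers (Ptprc, Laptm5, Coro1a, Cd53, Cd52) was 115, 156 and 87.1 in KO tumors, 55.1, 34.8 and 55.6 in WT tumors, 32.7, 35.9 and 35.6 in KO livers and 21.6, 41.6 and 25.3 in WT livers. All 5, with a median of 1.55, rose in KO tumors against KO livers, where 9.09% of tested entries rose. In WT tumors against WT livers 1 rose, Coro1a at 1.09 ± 0.30 (limma adjusted p = 0.0487), where 8.01% of tested entries rose. None of the 5 passed between KO and WT tumors, with a median of 1.13. The summed FPKM of the 7 class II genes was 1638, 2324 and 448 in KO tumors, 379, 317 and 427 in WT tumors, 159.7, 166 and 192 in KO livers and 78.2, 192 and 126 in WT livers. Divided by the leukocyte sum it was 14.3, 14.9 and 5.15 in KO tumors, 6.88, 9.13 and 7.68 in WT tumors, 4.88, 4.62 and 5.41 in KO livers and 3.63, 4.61 and 5.004 in WT livers. By this ratio KO tumors 1 and 2 were above every other library, and KO tumor 3 was below all WT tumors. All WT tumors were above all WT livers. The part of leukocytes in these values was not tested.

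Macrophage and Kupffer cell markers, 14 genes, summed to 595, 806 and 708 FPKM in KO tumors, 473, 168 and 187 in WT tumors, 348, 298 and 251 in KO livers and 303, 397 and 253 in WT livers. Lyz2, lysozyme, stood at 199.6, 152.7 and 118.3 FPKM in KO tumors and 125.7, 46.3 and 37.7 in WT tumors. C1qa, a complement component made by macrophages, stood at 101.8, 201 and 131 FPKM in KO tumors and 70.6, 29.9 and 39.4 in WT tumors. Of the 13 tested, none passed between KO and WT tumors, with a median of 1.12, where 0.0771% of tested entries passed. In KO tumors against KO livers 6 of them rose, with a median of 1.29, where 9.09% of tested entries rose. In WT tumors against WT livers 2 rose, Cx3cr1 and Ccr2, where 8.01% of tested entries rose. There 1 fell, Timd4, by 1.63, and the median was -0.22. WT tumors 2 and 3 had a lower macrophage marker sum than every WT liver but a higher class II sum. KO tumor 3 carried as much macrophage marker RNA as the others of its group but class II levels near WT tumors. Its Kupffer cell markers, picked out after their values were seen, differed from those of the other KO tumors: Clec4f, a lectin of resident Kupffer cells, stood at 89.7 FPKM there, against 12.5 and 2.55 in KO tumors 1 and 2, and Vsig4, a complement receptor, at 41.2 against 9.37 and 2.05. WT tumors also differed among themselves, with Clec4f at 54.5, 10.5 and 11.8 FPKM and Vsig4 at 32.0, 5.98 and 8.37. Timd4 and Marco were not highest in WT tumor 1. Timd4 stood at 0.440, 0.423 and 0.660 FPKM in WT tumors, against 4.85, 4.44 and 2.14 in WT livers. Marco stood at 0.153, 0.975 and 2.38 FPKM in WT tumors, lowest in WT tumor 1. In WT livers Clec4f stood at 44.5, 51.5 and 37.0 FPKM and Vsig4 at 20.3, 28.1 and 20.3. Low values were thus not particular to KO tumors 1 and 2.

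Dendritic cell markers, 11 genes, summed to 27.9, 46.6 and 19.6 FPKM in KO tumors, 14.9, 12.5 and 15.2 in WT tumors, 8.76, 7.65 and 8.79 in KO livers and 6.41, 10.7 and 8.22 in WT livers, so that all KO tumors were above all WT tumors and all WT tumors above all livers, with overlapping liver groups. Most of the KO tumor sum was Itgax, Irf8 and Fscn1. Of the listed markers, only Itgax, Irf8 and Flt3 had all KO tumors above all WT tumors, and Zbtb46 had all below. All WT tumors were above all livers only for Itgax, Flt3, Fscn1 and Siglech. Itgax, which encodes CD11c, stood at 9.85, 22.4 and 3.86 FPKM in KO tumors, 1.21, 2.37 and 2.39 in WT tumors, 0.814, 0.306 and 0.587 in KO livers and 0.198, 1.11 and 0.357 in WT livers, with KO tumor 2 highest and KO tumor 3 lowest of its group, as for class II. Irf8 shared this order, and no other listed marker did. Among KO tumors, Flt3, Zbtb46, Xcr1, Clec9a, Cd209a, Siglech and Clec10a were highest in replicate 1, at no more than 1.18 FPKM. Fscn1 and Ccr7 were highest in KO tumor 2 but lowest in KO tumor 1. Not all markers of this list were highest in KO tumors: Zbtb46, a transcription factor of conventional dendritic cells, averaged 0.803 ± 0.0845 FPKM in KO tumors and 1.18 ± 0.261 in WT tumors, while Clec9a, a receptor of cross-presenting dendritic cells, averaged 0.953 ± 0.257 in KO tumors and 0.772 ± 0.160 in WT tumors (SD, n = 3 each). Both were named after their values were seen, and neither passed in any comparison. Itgax rose in KO tumors against KO livers by 2.79 and in WT tumors against WT livers by 0.96, and gave 1.87 ± 0.54 between KO and WT tumors (limma adjusted p = 0.155). Irf8, a transcription factor of dendritic cells and macrophages, stood at 7.51, 10.4 and 7.36 FPKM in KO tumors and 4.63, 2.94 and 4.72 in WT tumors.

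The B and plasma cell marker sum was highest in WT tumors. The 8 genes summed to 22.4, 13.3 and 20.6 FPKM in KO tumors, 45.6, 28.6 and 63.8 in WT tumors, 5.88, 11.8 and 9.92 in KO livers and 5.32, 6.05 and 2.97 in WT livers. Most of the WT tumor sum was Jchain, at 29.8, 21.0 and 53.9 FPKM. Other markers, named after their values were seen, had higher means in KO tumors: Cd22 averaged 1.09 ± 0.385 FPKM in KO tumors and 0.482 ± 0.342 in WT tumors, and Cd79b 2.19 ± 0.727 in KO tumors and 1.66 ± 1.28 in WT tumors. The tumor groups overlapped for both. Jchain, which joins secreted antibodies into polymers, rose in WT tumors against WT livers by 3.67 ± 0.37 (limma adjusted p = 0.00307), as did Mzb1 by 1.24 ± 0.16 (0.00621), a row shared with Spata24. The B cell markers Ms4a1 and Pax5 were listed at 0 in 3 and 4 libraries. T and NK cell markers, 9 genes, summed to 7.59, 24.4 and 3.78 FPKM in KO tumors and 4.11, 3.53 and 16.4 in WT tumors, 2.50 to 4.10 in KO livers and 1.74 to 3.98 in WT livers. Neutrophil markers summed to 29.8, 22.2 and 57.3 FPKM in KO tumors and 9.82, 10.002 and 8.90 in WT tumors, 8.24 to 40.1 in KO livers and 6.91 to 30.1 in WT livers. Endothelial markers summed to 53.7 to 99.1 FPKM in KO tumors, 58.1 to 102 in WT tumors, 88.7 to 122 in KO livers and 94.0 to 112 in WT livers. Of these 6 markers, 3 had a positive difference in KO tumors against KO livers. Only Cdh5 passed there, at 1.03 ± 0.20 (limma adjusted p = 0.0219). Clec4g, the most abundant in normal livers, was at -2.79 ± 0.88 and did not pass (0.075). Clec4g fell in WT tumors against WT livers by 0.89 (0.0333). Cholangiocyte markers summed to 563, 3519 and 267 FPKM in KO tumors and 63.7, 640.0 and 382 in WT tumors, 70.1 to 77.6 in KO livers and 35.9 to 129 in WT livers. Nearly all of this was Spp1, osteopontin, at 554, 3505 and 254 FPKM in KO tumors. In KO tumors against KO livers Spp1 rose by 3.57 ± 0.86 (limma adjusted p = 0.037) and Sox9 by 1.83 ± 0.40 (0.0293). Sox9 also rose in WT tumors against WT livers, by 1.27 ± 0.27 (0.0229). The remaining markers Krt19, Krt7 and Epcam did not pass in KO tumors against KO livers, at -0.28, -0.04 and 0.06. Stellate cell markers summed to 37.4 to 79.5 FPKM in KO tumors, 21.5 to 40.7 in WT tumors, 24.7 to 43.1 in KO livers and 16.2 to 25.5 in WT livers. Hepatocyte markers were present in every library, at 18883, 14230 and 25423 FPKM in KO tumors and 40455, 30607 and 37724 in WT tumors, 21105 to 27167 in KO livers and 21935 to 28321 in WT livers. KO tumors 1 and 2, highest in class II, had the lowest sums of hepatocyte markers. Single markers differed: Apoa1 in KO tumor 1, at 14531 FPKM, was above every normal liver. Most of the WT tumor sum was Apoa1, at 27242, 19940 and 21936 FPKM. Its rise of 1.24 ± 0.28 in WT tumors against WT livers (limma adjusted p = 0.0267) was the only positive difference among the 8, whose median was -0.30. Cps1 fell there by 1.11 (0.0212) and Hnf4a by 0.91 (0.0185). The part of these cell types in the class II results was not tested.

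**Figure D4:**
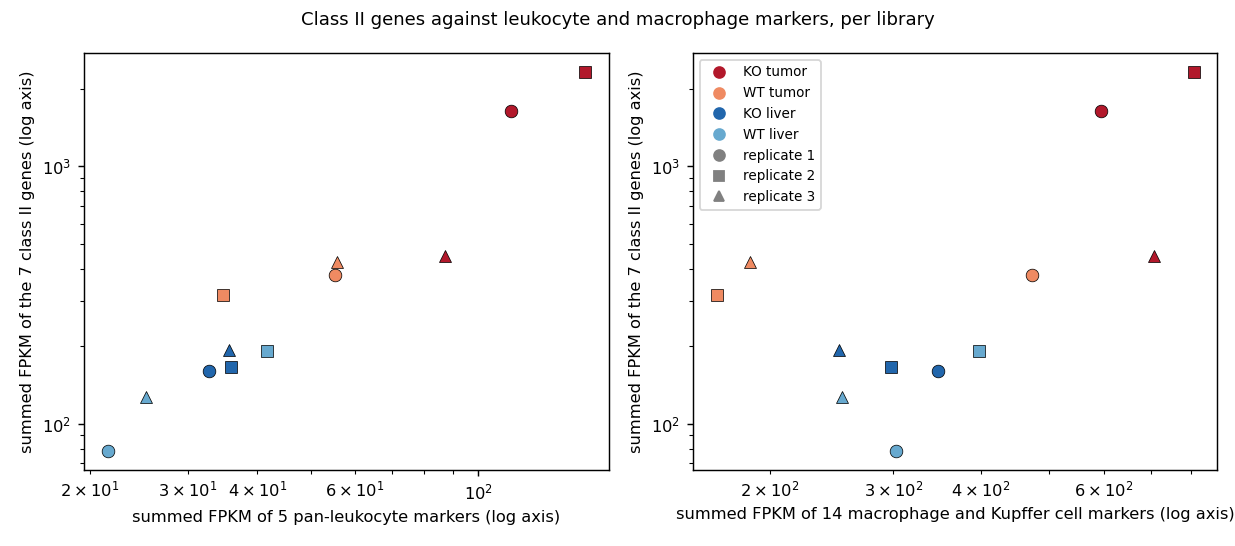
Summed FPKM of the 7 class II genes (vertical, log axis) against the summed FPKM of 5 pan-leukocyte markers (left) and 14 macrophage and Kupffer cell markers (right, log axes), a point for each of 12 libraries. The libraries lie along a rising band on the left; on the right KO tumor 3 has 708 FPKM of macrophage markers and 448 FPKM of class II, and WT tumors 2 and 3 lie to the left of the livers.

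The 8 genes whose log2 levels followed the mean of the 6 tested class II genes most closely over the 12 libraries, among 10354 candidates, were Iqgap1 (r = 0.975), S100a11 (0.973), Ly6c1 and Tax1bp3 (0.970 each), Relb and Ppap2c (0.969 each), and Sash3 and Pgap2 (0.968 each). These coefficients are a description over libraries that share their group differences and scaling. With group means removed they lay between 0.840 for Tax1bp3 and 0.917 for Pgap2. S100a11, a calcium-binding protein, stood at 232, 455 and 163 FPKM in KO tumors, 60.7, 65.3 and 61.6 in WT tumors, 27.8, 26.7 and 26.3 in KO livers and 10.8, 22.2 and 17.1 in WT livers. Relb, an NF-kB subunit known for its role in dendritic cells, stood at 6.07, 7.25 and 2.91 FPKM in KO tumors, 2.54, 3.12 and 2.84 in WT tumors, 1.52, 1.17 and 1.08 in KO livers and 0.563, 1.71 and 1.30 in WT livers. In both, KO tumor 2 was highest and KO tumor 3 lowest of its group, as for class II, and for Relb KO tumor 3 lay among the WT tumors.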

How the data were processed

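The authors deposited 1 FPKM table per library, made with TopHat2 2.1.1 and Cufflinks 2.2.1 on mm10 per the submitters' processing notes; the sources used here give neither settings nor annotation. Poly(A) RNA was sequenced from a library kit that does not keep strand, per the labels' protocols, so reads from a gene and an antisense partner cannot be told apart. FPKM values carry no read counts, and no common read step was found (at most 4.84% of low values fell on 1 ratio), so depth is unknown and no counting interval is given.

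Entries with FPKM of at least 1 in at least 3 of 12 libraries were tested on log2(FPKM + 1) with limma 3.58.1 in R 4.3.3 (empirical Bayes with a mean-variance trend, two-sided), on the 6 libraries of each comparison and on all 12 for the interaction. P-values were adjusted by Benjamini-Hochberg over all 11671 entries and called below 0.05. Fold changes on this scale understate those of low genes. Ratios between members were compared with exact permutation tests (SciPy 1.17.1, Python 3.11.15). The code was tested on simulated data. Members and gene lists were chosen with earlier results of these data known. Genes were named by rule: all 7 members, list genes with the smallest adjusted p and a set of listed regulators, the most abundant markers, and the 8 entries most correlated with the members; exceptions are stated, and some listed genes are not reported here. Alternatives were the pseudocount, the filter, 3 scalings, a fit of all 12 libraries, a replicate block and leaving out each library. Promoter sequences are from RefSeq (GRCm38.p6) and matched 4 of 7 members by symbol.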

Additional observations from a re-analysis of the deposited data

How the results depend on the processing

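The direction of every tested member held in each comparison under each alternative run. Between KO and WT tumors, alternatives that kept all libraries gave 0.93 to 1.9 on the log2 scale, with 2 members called in 1 fit of all 12 libraries (0 otherwise), and leaving out a library gave 0 to 5 calls. Between KO and WT livers no alternative called a member. In WT tumors against WT livers, all 5 calls were lost with no filter, where the 1 call was Ciita, 1 (H2-Ab1) was kept in 1 fit of all 12 libraries, and 0 to 5 members passed without a library. In KO tumors against KO livers, 6 calls became 0 with no filter, and 0 to 6 without a library. The interaction gave 0 calls with all libraries and 0 to 5 without a library. Counts over all entries under these alternatives are given below. The causes were not tested.

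Deviations of same-numbered libraries from their group means correlated at r between -0.28 and 0.35, highest for replicate 1 of KO and WT tumors. The numbers were not used as pairs in the main test. These correlations cannot exclude that some libraries were handled together, which the labels do not give. A fit with the replicate number as a block called 0 members between KO and WT tumors, between KO and WT livers and in the interaction. It called 4 in WT tumors against WT livers, where 1235 of 11671 entries passed, and 6 in KO tumors against KO livers, where 1420 did. In the tumor comparison 2 of 6 libraries correlated best with their own number, and 0 in the others.

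Counts over all entries depended on the settings. Between KO and WT tumors 9 calls became 0 with the block, 1 with no filter, 24 with a common sum, 14 with median-of-ratios scaling, 16 with quantile normalization and 1017 in 1 fit of all libraries (0 to 266 without a library). Between KO and WT livers 2113 became 153 with the block, 868 with no filter and 1144 in 1 fit (240 to 1964 without a library). In WT tumors against WT livers 1981 became 1235 with the block, 1257 with no filter, 1263 at a mean FPKM of 5 or more and 1105 in 1 fit (454 to 2134). In KO tumors against KO livers 1664 became 1420 with the block, 543 with no filter, 670 at a mean of 5 or more and 3340 in 1 fit (129 to 2981). In the interaction 243 became 114 with the block, 56 with no filter, 133 at a mean of 5 or more and 120 with a common sum (7 to 1368).

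A common sum moved the median of all genes by 0.10 between KO and WT tumors, 0.25 in WT tumors against WT livers, 0.36 in KO tumors against KO livers and 0.11 in the interaction; members then stood at 1.51 to 1.90, 1.13 to 1.98, 2.26 to 3.33 and 1.04 to 1.48. Calls that were higher in tumors went to 80.1% with it, against 47.2% as deposited, in WT tumors against WT livers, and to 86.6%, against 63.8%, in KO tumors against KO livers. In the interaction 68.3% were then positive, against 55.1%, and between KO and WT tumors 28.6% were higher with median-of-ratios scaling, against 44.4%.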
